A study of Mus musculus with 2 samples.

Results

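Neat1 and Malat1 are long non-coding RNAs that stay in the nucleus, and they are 2 of the 32289 features counted in nuclei of the mouse anterior hypothalamus. They were chosen because their shares of the counted molecules had already been seen to differ between cell classes and between an aged and a young library. Every level and every difference of these genes is therefore a description, with no test. The aged library came from mice of 22 months and the young library from mice of 3 months. Each library pooled the tissue of 5 male mice, and the labels call the young mice wild-type and give no genotype for the aged mice and no strain for either. The dissected tissue included the preoptic area, and all nuclei passed an iodixanol gradient, removal of myelin with beads and sorting on DAPI before loading on a 10x Genomics chip. There was 1 library per age and so no replicate, and age, pool of mice and library cannot be told apart. All intervals are 95% intervals that cover counting error only.

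Malat1 gathers in nuclear speckles, the nuclear bodies where splicing factors are stored, and is one of the most abundant RNAs of mammalian nuclei. Neat1 is the scaffold of paraspeckles, bodies that form around its long isoform and hold proteins such as Nono, Sfpq and Pspc1. The RNAs are made from neighbouring genes, and the mature 3′ end of Malat1 and that of the long Neat1 isoform are cut by RNase P in front of a tRNA-like RNA instead of being polyadenylated in the usual way. An A-rich stretch at each end then folds with upstream U-rich stretches into a triple helix that protects the RNA.

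In the GENCODE M21 annotation of GRCm38, Malat1 (ENSMUSG00000092341) lies on the minus strand of chromosome 19 from 5795690 to 5802672, and its longest transcript, Malat1-201, is 1 exon of 6983 bases. Neat1 (ENSMUSG00000092274) lies on the same strand from 5824708 to 5845478, its longest transcript, Neat1-201, is 1 exon of 20771 bases, and 22035 bases separate the gene models. The 3′ ends are shown because they are the stretches by which the RNAs are processed and which they share. The Malat1 stretch is chr19:5795958-5796029 on the minus strand of GRCm38, set around the longest run of A in Malat1-201, which is 12 bases long and ends 298 bases before the end of the annotated transcript. The Neat1 stretch is chr19:5824708-5824807 on the minus strand, the last 100 bases of Neat1-201. Capitals mark the 2 stretches of 10 or more bases that occur in both, the first of 12 bases rich in T and the second of 11 bases rich in A.
Malat1: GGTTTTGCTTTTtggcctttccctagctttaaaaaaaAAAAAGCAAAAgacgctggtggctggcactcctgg
Neat1: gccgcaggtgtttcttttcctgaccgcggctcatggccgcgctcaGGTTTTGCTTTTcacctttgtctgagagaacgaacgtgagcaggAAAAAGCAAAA
The annotated Neat1-201 ends on the last base of the shared A-rich stretch. The longest run of A within Neat1-201 is 7 bases, and it holds no run of 8 or more. The counts are per gene, so the short and the long Neat1 isoform cannot be told apart. A gene model on the opposite strand, Gm37376, lies within Malat1 from 5801941 to 5802393 and was not in the feature list, and no source used here says whether strand entered the counting.

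Barcodes with 500 or more genes and at most 5% of their unique molecular identifiers (UMIs, 1 per counted molecule) from mitochondrial genes were kept. The aged library had 8597 such barcodes, with 57472005 UMIs and a median of 5699. The young library had 10437, with 69103229 UMIs and a median of 5567. The libraries shared 25 barcodes, 0.291% of the aged and 0.24% of the young ones. After 368 aged and 489 young barcodes marked as doublets were left out, clusters made without Neat1 and Malat1 gave 5 main classes, each of which carried at least 7 of its markers in 10% or more of its nuclei in both libraries. These were neurons (4999 aged and 6424 young nuclei), oligodendrocytes (1881 and 2133), their precursors (183 and 254), microglia (411 and 477) and astrocytes (155 and 387). A cluster of 519 aged and 92 young barcodes led by Oxt, Avp and ribosomal protein genes had a median of 687 UMIs. It stayed unnamed because none of the markers of its best-scoring list was detected in 10% or more of its barcodes.

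Neat1 was above all an RNA of oligodendrocytes. These myelin-forming cells held 90.6% of the Neat1 UMIs of all named nuclei in the aged library and 86.3% in the young library, with only 7.69% and 6.86% of the UMIs of those nuclei. Neat1 made up 0.207% of the UMIs of aged oligodendrocytes (8446 UMIs, 0.202 to 0.211%) and 0.139% of those of young oligodendrocytes (6100 UMIs, 0.136 to 0.143%). By UMIs, not corrected for length, it was the 24th gene of aged and the 48th of young oligodendrocytes. Its share was 170 times that of neurons in the aged library (156 to 185) and 173 times in the young library (157 to 191).

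Among the other classes, Neat1 was next highest in the small sets of vascular and border cells. Fibroblasts held 0.0636% in 17 aged nuclei and 0.0714% in 95 young nuclei. Of the young nuclei, 32 formed a cluster without aged nuclei, at 0.0922%. In the other fibroblast cluster Neat1 stood at 0.0636% aged and 0.0439% young, with overlapping intervals. Border macrophages held 0.0464% in 15 aged and 0.0475% in 24 young nuclei, and endothelial cells 0.0387% in 21 aged and 0.0411% in 24 young nuclei. The intervals of these 3 classes overlap in the aged library. Mural cells held 0.0214% in 28 aged and 0.00961% in 38 young nuclei, on 12 and 11 UMIs. Microglia and astrocytes stood at 0.015% and 0.0122% in the aged and at 0.00726% and 0.00887% in the young library, with overlapping intervals for the pair in each library. Precursors of oligodendrocytes (0.00183% aged, 0.00263% young) and neurons (0.00122% aged, 0.000805% young) came last, and their intervals overlap in the aged and not in the young library. Precursors thus lay far below the mature cells they give rise to.

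Neat1 was also counted outside nuclei. Droplets without nuclei, taken as barcodes of over 100 and under 500 UMIs, held 0.00699% Neat1 (aged) and 0.00483% (young). Neurons and precursors lay below that share in both libraries. Barcodes of 100 or fewer UMIs held more Neat1, 0.0195% aged and 0.013% young. Microglia and astrocytes also lay below the share of those barcodes in both libraries. With the mean counts of such a droplet subtracted from each nucleus, the log2 ratio of neuronal Neat1, aged over young, was 0.54, against 0.60 without subtraction. In the share of nuclei with at least 1 Neat1 UMI, aged oligodendrocytes reached 92% (median depth 2023 UMIs) and young oligodendrocytes 82% (1891 UMIs), against 8.3% of aged neurons (8353 UMIs) and 5.45% of young neurons (7763 UMIs), although the neurons were deeper.

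Malat1 was spread over every class. By UMIs, not corrected for length, it was the first gene of all 5 main classes in both libraries. Of these 5, astrocytes held the most, 12.2% of UMIs in the aged library (12.1 to 12.3%) and 13.9% in the young one (13.86 to 13.99%), followed by oligodendrocytes with 10.2% and 13.8%, precursors with 7.4% and 8.15%, neurons with 5.55% and 6.48% and microglia with 4.29% and 5.52%. The order of the 5 classes was the same in both libraries, and no 2 neighbours in it had overlapping intervals in the aged library. In the young library astrocytes and oligodendrocytes were closest, and the interval of oligodendrocytes (13.74 to 13.81%) lay just below that of astrocytes. In neurons the next gene was Meg3, a maternally expressed long non-coding RNA, at 0.911% in the aged library and 1.11% in the young one. Malat1 made up 1.68% of UMIs in aged and 1.88% in young droplets without nuclei, below every named class. The unnamed low-UMI cluster held 1.59% and 1.15%. In barcodes of 100 or fewer UMIs Malat1 made up 3.09% aged and 5.81% young. Young microglia and young border macrophages (5.14%) lay below that young share.

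**Figure D1:**
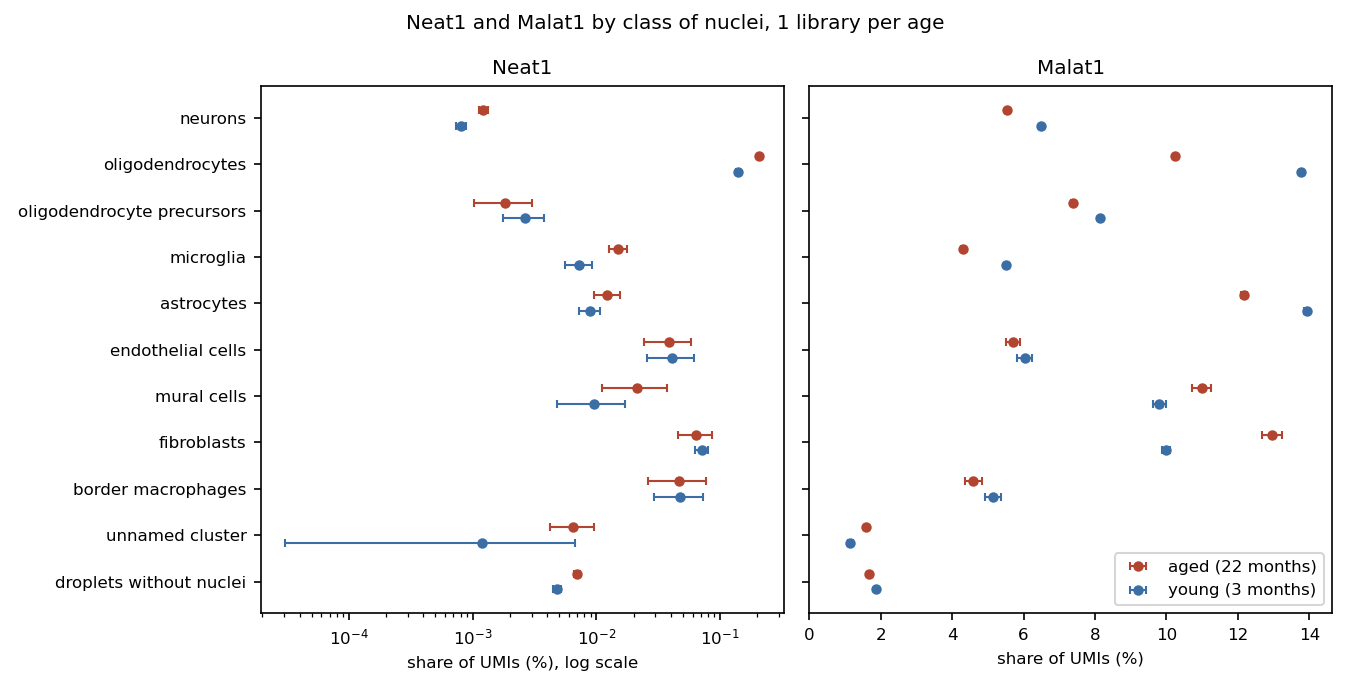
Share of all UMIs of a class taken by Neat1 (left, log scale) and Malat1 (right, linear scale), in percent, in the aged and the young library, with exact Poisson 95% intervals. Neat1 is highest in oligodendrocytes (0.207% aged, 0.139% young). In neurons and precursors it lies below the level in droplets without nuclei (over 100 and under 500 UMIs). Malat1 lies above its level in these droplets in every named class.

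In oligodendrocytes and microglia the RNAs differed in opposite directions between the ages, with Neat1 higher and Malat1 lower in the aged library. A gene is counted as past the limit here where the higher of its levels is at least 25% above the lower one, and only genes with at least 50 UMIs in the class are counted. The share of such genes past the limit and higher in the aged library was 10.7% in neurons, 22.6% in oligodendrocytes, 20.9% in precursors, 21.3% in microglia and 21.1% in astrocytes. The share past the limit and lower was 13.7%, 8.3%, 17.4%, 14.6% and 16.6% in the same order. Against this background Neat1 was past the limit and higher in 4 of the 5 classes, and Malat1 past it and lower in 2 of them. In precursors, the class left, Neat1 had 15 aged and 28 young UMIs, fewer than 50 together, and so was not counted. Its ratio there was 0.693, with an interval that included 1. In nuclei without a UMI of 10 oligodendrocyte markers, the Neat1 ratio was 1.01 in neurons and 0.554 in astrocytes, with intervals that included 1. These contrasts chose the genes, so the counts carry no weight of their own.

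In oligodendrocytes Neat1 was 1.49 times as high in the aged as in the young library (1.44 to 1.54). The median nucleus held 4 Neat1 UMIs, 0.182% of its total, in the aged library (quartiles 0.1% and 0.286%) and 2 UMIs, 0.116% of its total, in the young library (quartiles 0.0504% and 0.212%). The highest nucleus held 37 Neat1 UMIs in the aged library and 21 in the young one, and 167 aged and 58 young oligodendrocytes held 10 or more. The whole distribution was shifted, and the distributions of the libraries overlapped widely.

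The share of oligodendrocytes with a Neat1 UMI was 10 percentage points higher in the aged library (7.97 to 12.1). Depth differs between nuclei, so each nucleus was also drawn down to 1000 UMIs, which left out 23 aged and 54 young oligodendrocytes below that depth. The share with a Neat1 UMI was then 81.1% in aged and 65% in young oligodendrocytes, a difference of 16.1 points (13.4 to 18.8).

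Malat1 was lower in the same oligodendrocytes, at 0.743 times the young share (0.74 to 0.746). The median nucleus held 9.74% Malat1 in the aged library, with a range of 2.34 to 22%, and 13.1% in the young library, with a range of 3.02 to 39.8%. The upper quartile of aged nuclei, 11.6%, lay below the young median. A lower Malat1 share leaves more of the total to every other gene. With Malat1, Neat1 and mitochondrial UMIs taken out of the total, the log2 ratio was 0.51 for Neat1 and -0.48 for Malat1, against 0.57 and -0.43 with them in.

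Both differences were present throughout the class. Oligodendrocytes fell into a cluster with Opalin, Il33 and Ptgds among its leading genes (1264 aged and 1346 young nuclei) and another led by genes such as Anln, Hapln2 and Apod (617 and 787). Neat1 stood at 0.197% aged and 0.13% young in the first, and at 0.221% aged and 0.152% young in the second. Malat1 stood at 9.94% aged and 14% young in the first, and at 10.7% aged and 13.5% young in the second. A finer clustering split the class into 4 clusters that were mostly of 1 age, with 493 aged and 175 young, 720 and 108, 310 and 1088, and 358 and 762 nuclei. Within these the Neat1 ratio, aged over young, was between 1.38 and 1.8 and the Malat1 ratio between 0.731 and 0.836.

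The direction was the same at each depth. In oligodendrocytes under 1500 UMIs, from 1500 to under 2500, and of 2500 or more, the Neat1 ratio was 1.43, 1.46 and 1.57. The Malat1 ratio in the same bins was 0.708, 0.739 and 0.748. Mitochondrial genes made up 0.592% of the pooled UMIs of aged and 0.53% of those of young oligodendrocyte nuclei. With only nuclei of at most 1% mitochondrial UMIs, the log2 ratio was 0.58 for Neat1 and -0.43 for Malat1.

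Grouped by their Neat1 count, aged oligodendrocytes without a Neat1 UMI held 11.4% Malat1 and those with 10 or more held 10.3%. Young oligodendrocytes without a Neat1 UMI held 16.3% Malat1 and those with 10 or more held 12.7%. These sets also differ in depth, with medians of 1667 and 2632 UMIs in the aged and 1697 and 2970 UMIs in the young library. Malat1 was lower in the aged library in nuclei with no Neat1 UMI as well as in those with many.

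**Figure D2:**
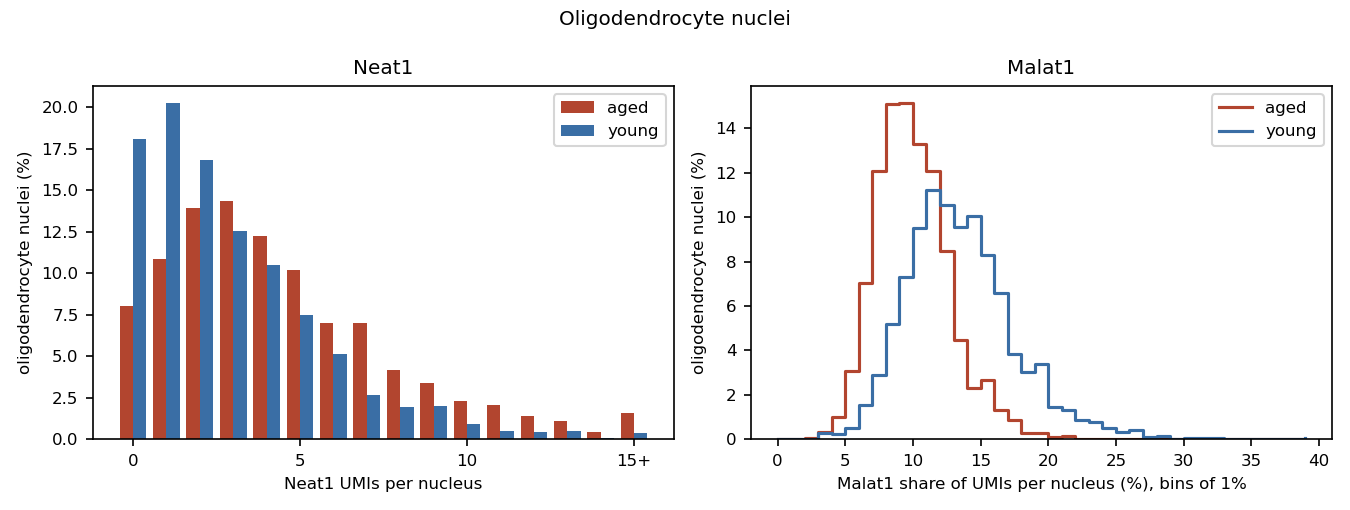
Oligodendrocyte nuclei by their number of Neat1 UMIs (left, bars, the last bar holding 15 or more) and by the Malat1 share of their UMIs in bins of 1% (right, lines), as percent of the nuclei of each library, 1881 aged and 2133 young. Aged nuclei lie further right for Neat1 (median 4 UMIs aged, 2 young) and further left for Malat1 (median 9.74% aged, 13.1% young).

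In microglia, the resident immune cells of brain tissue, Neat1 was 2.06 times as high in the aged as in the young library (1.53 to 2.8), on 140 and 68 UMIs. It was seen in 22.9% of aged and 11.7% of young microglia, and after thinning to 1000 UMIs in 13.3% and 6.05%, a difference of 7.22 points (3.31 to 11.3). Oligodendrocyte RNA in microglial nuclei was measured with 10 oligodendrocyte markers, among them Mbp and Mog. In the 140 aged and 192 young microglia without a single UMI of these markers the Neat1 ratio was 1.94 (1.16 to 3.3). Neat1 counted 27 UMIs per 100 marker UMIs in aged and 11.8 in young microglia, against 10.1 in aged and 6.64 in young oligodendrocytes. The same count was 29.8 aged and 22.1 young in astrocytes, 5.72 and 4.34 in neurons and 3.38 and 1.61 in precursors. In droplets without nuclei it was 2.32 and 1.44. The source of the Neat1 UMIs in microglia was not tested. Malat1 was lower in aged microglia, with a ratio of 0.778 (0.768 to 0.788) and medians of 4.22% in aged and 5.47% in young nuclei.

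In astrocytes the Neat1 ratio was 1.38 with an interval that barely left out 1 (1.001 to 1.89), on 68 aged and 105 young UMIs. After thinning, 7.79% of aged and 7.53% of young astrocytes held a Neat1 UMI, a difference of 0.26 points (-4.24 to 6.04). In the 40 aged and 124 young astrocytes without oligodendrocyte marker UMIs the direction turned, with 8 and 36 Neat1 UMIs and a ratio of 0.554 (0.223 to 1.21). By depth, the ratio was 1.52 (1.03 to 2.24) in astrocytes of 3000 or more UMIs (93 aged, 171 young). In those of fewer UMIs (62 aged, 216 young) it was 1.1 (0.572 to 2.01). Over all astrocytes Neat1 was thus higher in the aged library, but not clearly so after thinning or without marker UMIs, which both leave fewer counts. Malat1 in astrocytes had a ratio of 0.874 (0.866 to 0.882), with medians of 11.8% in aged and 13.8% in young nuclei.

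Oligodendrocyte precursors held 15 Neat1 UMIs in the aged library and 28 in the young one, a ratio of 0.693 (0.344 to 1.34). Of the young UMIs, 15 lay in 22 nuclei that a finer clustering set apart by markers of committed precursors, the stage on the way to myelination, where Neat1 reached 0.0107% (0.00599 to 0.0177%). The aged library had 2 such nuclei, with 0 Neat1 UMIs among 8803, which allows a share of up to 0.0341% (3 counts of the total). In the remaining precursors Neat1 stood at 0.00185% in 181 aged and 0.00141% in 232 young nuclei, so the direction turned with the committed nuclei left out, with intervals that overlap. Malat1 in precursors had a ratio of 0.907 (0.898 to 0.916). In the 26 aged and 58 young precursors without oligodendrocyte marker UMIs it was 0.988, with an interval that included 1 (0.962 to 1.01).

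**Figure D3:**
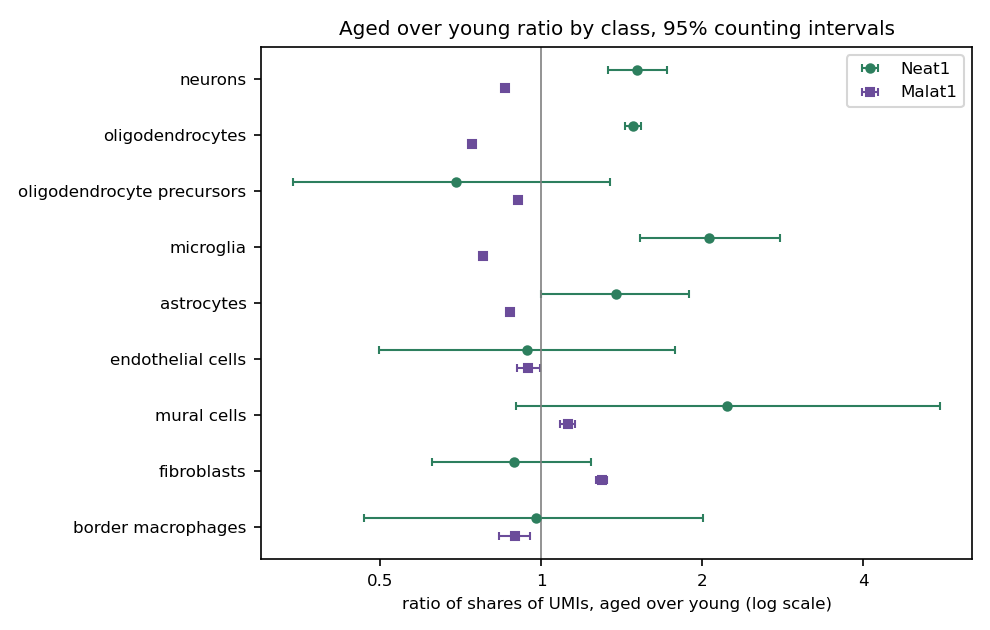
Ratio of the share of UMIs, aged over young, for Neat1 (circles) and Malat1 (squares) by class, on a log scale with exact conditional 95% intervals. The Malat1 ratio lies below 1 in all 5 main classes (0.743 to 0.907) and above 1 in mural cells (1.12) and fibroblasts (1.3), and the interval of the Neat1 ratio lies above 1 in neurons (1.51), oligodendrocytes (1.49), microglia (2.06) and, barely, astrocytes (1.38).

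Neurons showed the Malat1 difference in every sub-cluster. Their Malat1 ratio was 0.856 (0.854 to 0.857), with medians of 5.01% in aged and 5.71% in young nuclei. Clustered again alone, neurons gave 24 sub-clusters with 20 or more nuclei in each library. Malat1 was lower in the aged library in 24 of 24, each with an interval below 1, and the ratios ran from 0.763 to 0.937 with a median of 0.879. Only 1 of the 24 was past the limit of 25%, the Sst and Npy interneuron-like sub-cluster, with 4.34% in 30 aged and 5.69% in 40 young nuclei.

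Levels differed more between kinds of neuron than between ages. Malat1 ran from 3.12% to 9.39% over the sub-clusters of the aged library and from 3.7% to 11% over those of the young library. The highest was the cholinergic-like sub-cluster, led by Slc5a7 and Chat, which take up choline and make acetylcholine, with 9.39% in 31 aged and 11% in 50 young nuclei. Next in the young library came the Drd2 striatal-type-like sub-cluster, with 8.34% aged and 9.89% young, the Drd3 granule-type-like one, with 8.88% and 9.83%, and the suprachiasmatic-like one led by Vip, with 8.42% and 9.33%. The lowest was the thalamic-type-like sub-cluster, with 3.12% in 123 aged and 3.7% in 107 young nuclei.

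Near the lower end lay sub-clusters led by genes of preoptic and other hypothalamic neurons. The Esr1 preoptic-type-like one, led by Gal and Tac2, held 3.66% in 358 aged and 4.14% in 415 young nuclei. A sub-cluster led by Cyp19a1, the gene of aromatase, held 3.8% in 141 aged and 4.31% in 170 young nuclei. The paraventricular and supraoptic-like one, led by Trh and Sim1, held 3.83% and 4.47%. By transmitter, 19 sub-clusters had higher GABAergic than glutamatergic markers and ranged from 3.66% to 9.39% in the aged library and from 4.14% to 11% in the young one. The 5 others ranged from 3.12% to 6.11% in the aged library and from 3.7% to 6.6% in the young one, so the kinds overlapped.

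Neat1 in neurons was sparse, with 567 UMIs in 4999 aged and 449 UMIs in 6424 young nuclei and a pooled ratio of 1.51 (1.33 to 1.72). Part of it lay in a few nuclei in which oligodendrocyte markers took a larger share of UMIs than in neurons without a Neat1 UMI. The 47 aged and 48 young neurons with 2 or more Neat1 UMIs held 35.1% and 32.7% of all neuronal Neat1, and the 10 oligodendrocyte markers made up 0.173% of their UMIs in the aged library and 0.133% in the young one. In neurons without a Neat1 UMI those markers made up 0.0189% in the aged library and 0.0173% in the young one. Neurons with 1 Neat1 UMI held the larger part of it, 64.9% aged and 67.3% young, and their marker shares of 0.0208% aged and 0.0169% young lay close to those of neurons without Neat1. In the 1093 aged and 1778 young neurons with 0 marker UMIs, the Neat1 share was 0.000778% aged (70 UMIs) and 0.00077% young (103 UMIs), a ratio of 1.01 (0.734 to 1.38). The Malat1 ratio in these same neurons was 0.857 (0.854 to 0.86), as in all neurons. The marker St18 was also among the leading genes of the neuron sub-cluster led by Cyp19a1. The median doublet score of neurons with 2 or more Neat1 UMIs was 0.0902 aged and 0.1 young. It was 0.0525 and 0.0565 in neurons with 1 Neat1 UMI, and 0.051 and 0.0551 in those without. Whether marker UMIs in neurons were RNA of the neurons themselves or of oligodendrocytes was not tested. Taking only neurons with 0 marker UMIs can also select by kind of neuron.

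In a few neuron sub-clusters 1 nucleus held a large part of the aged Neat1 UMIs. The ratio was above 1 in 21 of 24 sub-clusters, but the interval left out 1 in only 5, and all sub-clusters lay below the level of their library's droplets. In the sub-cluster led by Cyp19a1 the ratio was 5.58 on 33 aged and 7 young UMIs, of which 1 aged nucleus held 8. In the Esr1 preoptic-type-like sub-cluster, with 63 aged and 43 young UMIs, 1 aged nucleus held 23, and in the one led by Gbx1 and Sox6, with 49 and 37, 1 aged nucleus held 19. The highest Neat1 share of the aged library was in the cholinergic-like sub-cluster, with 0.00405% aged and 0.00279% young, on 23 and 22 UMIs. The highest of the young library was in the suprachiasmatic-like one, with 0.00254% aged and 0.00297% young, on 14 and 21 UMIs. At such counts the order of these sub-clusters is uncertain.

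**Figure D4:**
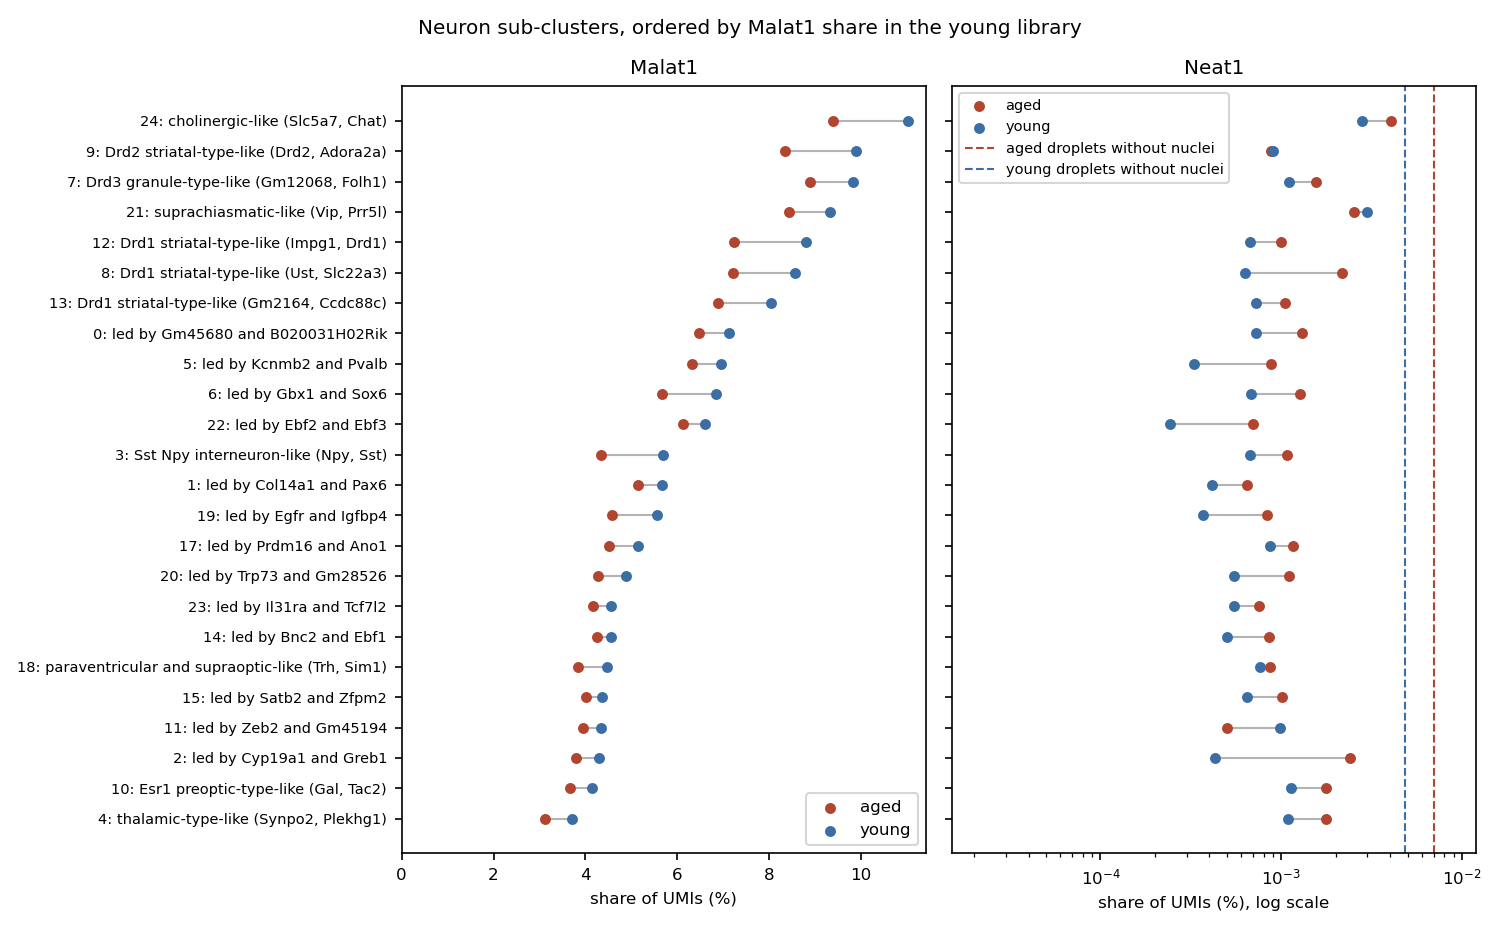
Share of UMIs taken by Malat1 (left, linear scale) and Neat1 (right, log scale), in percent, in 24 neuron sub-clusters of the aged and the young library, ordered by the young Malat1 share, with lines joining the libraries and dashed lines for Neat1 in droplets without nuclei. Malat1 is lower in the aged library in all 24, and Neat1 lies below the droplet level of its library in all 24.

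Other abundant RNAs went both ways. Of the 20 most abundant other genes, 7 were lower and 13 higher in the aged library in neurons, with ratios from 0.82 to 1.22, and 14 were lower and 6 higher in oligodendrocytes, with ratios from 0.85 to 1.09. In oligodendrocytes 0 of the 20, and in neurons 1 of the 20, Meg3, had a ratio at or below that of Malat1. In microglia 14 of the 20 were lower and 6 higher, and 1 had a ratio at or below that of Malat1. In precursors 4 were lower and 16 higher, and in astrocytes 12 were lower and 8 higher, with 2 of the 20 at or below the Malat1 ratio in each of these classes.

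The transcripts of proteins that build paraspeckles around Neat1 showed little of its difference. Counts of list genes past the limit are to be read against the shares over all genes given above. Of 26 listed proteins, 3 were past the limit and higher in aged neurons and 0 lower, and 2 were higher and 0 lower in aged oligodendrocytes. The 3 in neurons were Matr3, a protein of the nuclear matrix, at 1.29-fold (1.24 to 1.34), Hnrnpk, an RNA-binding protein, at 1.29-fold (1.24 to 1.35), and the RNA helicase Ddx3x at 1.31-fold (1.22 to 1.4). The 2 in oligodendrocytes were Hnrnpk at 1.32-fold (1.17 to 1.49) and Ddx3x at 1.31-fold (1.07 to 1.6). The median log2 ratio of the list was 0.06 in neurons, against 0.01 over all genes there, and 0.09 in oligodendrocytes, against 0.09 over all genes.

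Transcripts of the core paraspeckle proteins were close between the libraries in oligodendrocytes, where Neat1 was highest. On the CPM scale, which sets the UMIs of a gene against those of the class, Sfpq stood at 177 aged and 191 young, and Pspc1 at 97.1 aged and 87.3 young. Nono stood at 60.2 aged and 70.9 young. The intervals of all 3 ratios include 1. Elsewhere 2 of 25 measured paraspeckle proteins were higher and 1 lower in precursors, 2 of 26 were higher in microglia, and 3 of 24 were higher and 2 lower in astrocytes.

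Of 29 nuclear speckle proteins, 2 were higher in aged neurons and 0 lower, the splicing factors Srsf2 at 1.43-fold (1.38 to 1.49) and Srsf10 at 1.35-fold (1.31 to 1.4). In oligodendrocytes 5 were higher, led by Srsf5 at 1.36-fold (1.247 to 1.489), the U1 snRNP-associated Luc7l2 at 1.3-fold (1.23 to 1.38) and Srsf10 at 1.42-fold (1.2 to 1.68), and 1 was lower, Srsf7, at 1.26-fold (1.17 to 1.36). In microglia 8 were higher and 1 lower, in precursors 5 and 3, and in astrocytes 4 and 0. The speckle scaffold Son stood at 418 CPM in aged and 419 CPM in young neurons, and at 843 and 805 CPM in oligodendrocytes. The list's median log2 ratio was 0.04 in neurons, 0.02 in oligodendrocytes, -0.03 in precursors, 0.13 in microglia and 0.10 in astrocytes, against 0.01, 0.09, 0.03, 0.04 and 0.03 over all genes.

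Other long non-coding RNAs of the nucleus went both ways. Of 28 listed and counted in neurons, 3 were past the limit and higher in the aged library and 2 lower. In oligodendrocytes 9 of 26 were higher and 2 lower, in precursors 3 of 21 and 4, in microglia 4 of 18 and 2, and in astrocytes 5 of 19 and 3. Pvt1 was 2.07-fold higher in aged microglia (1.74 to 2.46). Meg3, also one of the neuron markers, was 2.3-fold higher in aged astrocytes (1.96 to 2.7), on 323 aged and 299 young UMIs. In neurons, where Meg3 is far more abundant, its ratio was 0.82 (0.817 to 0.824). Neuronal RNA in astrocyte nuclei was not measured. Rmst was 2-fold lower in aged astrocytes (1.66 to 2.41), and Gm26917 was past the limit and lower in all 5 classes, with an interval that included 1 in microglia. The list's median log2 ratio was -0.0018 in neurons, 0.17 in oligodendrocytes, -0.05 in precursors, 0.08 in microglia and -0.03 in astrocytes.

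The genes beside Malat1 and Neat1 on chromosome 19 were mostly within the limit in neurons and oligodendrocytes and mostly lower in aged microglia. In neurons 1 of 15 was higher and 1 lower, in oligodendrocytes 3 of 11 were higher and 0 lower, and in precursors and astrocytes 1 gene each had 50 UMIs and was within the limit. Frmd8, the protein-coding gene next to Neat1, stood at 86.6 CPM in aged and 77.5 CPM in young oligodendrocytes, a ratio of 1.12 (0.96 to 1.3). The median log2 ratio of the neighbours was -0.02 in neurons and 0.11 in oligodendrocytes. In microglia it was -0.41, and 5 of 8 neighbours were lower in the aged library and 1 higher, against 14.6% of all genes lower there. The 3 clearest were Slc25a45, a mitochondrial carrier gene, at 1.93-fold lower (1.32 to 2.86), Sipa1, which codes for a Rap GTPase-activating protein, at 1.39-fold lower (1.14 to 1.69), and Frmd8 at 1.82-fold lower (1.05 to 3.21). In the same cells Malat1 was lower and Neat1 higher.

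Genes that form the ends of these RNAs or bind them numbered 15. In neurons 3 were higher and 0 lower, Hnrnpk again, and the RNase P and MRP subunit genes Rpp25 at 1.42-fold (1.14 to 1.78) and Pop4 at 1.31-fold (1.13 to 1.52). In oligodendrocytes 2 of 13 were higher and 2 lower, among them Ezh2, the methyltransferase of Polycomb complex PRC2, at 1.29-fold lower (1.03 to 1.6). In precursors 1 of 7 was higher, in microglia 0 of 6 passed in either direction, and in astrocytes 2 of 7 were higher and 1 lower. The median log2 ratio was 0.07 in neurons, 0.13 in oligodendrocytes, 0.13 in precursors, 0.07 in microglia and 0.24 in astrocytes. Mettl16, whose protein binds the Malat1 triple helix, stood at 65.3 CPM in aged and 67.4 CPM in young neurons, with an interval of the ratio that includes 1.

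Of 4 genes for transcription factors known to drive Neat1, 1 of 4 was higher and 1 lower in neurons and 1 of 3 higher in microglia. Hif1a, the hypoxia-inducible factor, was 1.3-fold higher in aged neurons (1.23 to 1.38) and 1.82-fold higher in aged microglia (1.32 to 2.54). In oligodendrocytes 0 of the 4 were higher and 1, Epas1, was 1.29-fold lower with an interval that included 1 (0.827 to 2.04). In astrocytes Epas1 was 1.65-fold lower (1.13 to 2.48), and in precursors 0 of 2 passed in either direction. The median log2 ratio of these genes was -0.0034 in neurons, 0.07 in oligodendrocytes, 0.07 in precursors, 0.05 in microglia and -0.34 in astrocytes.

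Across the summed profiles of the 5 classes and the 24 neuron sub-clusters, 58 points with both libraries, the genes most like Neat1 among 13339 were Aspa (r 0.907), Il33 (0.904), Otud7b (0.902), Car14 (0.9) and Olfml1 (0.89). Aspa, which codes for aspartoacylase, was one of the oligodendrocyte markers. Those most like Malat1 were E130102H24Rik (0.732), 9230114K14Rik (0.715), Klf9 (0.713), Mxi1 (0.706) and Ptch1 (0.688). Neat1 and Malat1 were related to each other with r 0.458. The points share their 2 libraries and most are neurons, so these correlations describe the pattern only.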

How the data were processed

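Both libraries were analysed from the authors' deposited matrices of raw UMI counts per gene and barcode, unfiltered. The file headers name version 4 of Cell Ranger, a tool that the submitters' processing notes list too. No source used here gives the genome build, annotation, kit chemistry, use of intronic reads or use of strand. Depth was 79107368 UMIs over 1967507 barcodes in the aged and 87520038 UMIs over 1984763 barcodes in the young library. The members and gene lists were chosen with earlier results of these data known.

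Barcodes with at least 500 genes and at most 5% mitochondrial UMIs were taken, the mitochondrial limit removing 86 aged and 80 young barcodes. Scrublet, run per library in scanpy 1.11.5, marked 368 aged (4.28%) and 489 young (4.69%) barcodes as doublets, which were left out. The aim stated in the labels was 10000 nuclei per library. Joint clustering of the libraries used counts scaled to 10000 and log-transformed, 2000 variable genes other than Neat1 and Malat1, 30 principal components, 15 neighbours and Leiden clustering (resolution 1). Classes were named from marker lists with at least 3 detected markers, so names are rebuilt here and stand for nuclei that resemble the type. Neuron sub-clusters are called like a type only at a marker score of 0.65 or more.

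A level is the UMIs of the gene as a percent of the UMIs of the class, with an exact Poisson interval. Ratios carry the exact conditional binomial interval, shares of nuclei the exact Clopper-Pearson interval, and differences of shares Newcombe's score interval. For the median log2 ratio of a list, 5 CPM were first added to each library's level. The ratio and its interval were tested on simulated pooled counts with Poisson error only. That simulation leaves out any spread between nuclei, mice or libraries. With 1 library per age no test between ages was made. Of each list, up to 3 genes per class and direction at least 25% apart, with 50 or more UMIs, could be named, ranked by the interval bound nearest 1. The core genes Nono, Sfpq, Pspc1, Son, Mettl16 and Frmd8, and Meg3 in neurons, are named outside that rule, after their values were seen. Alternatives were other totals, gene and mitochondrial limits, barcode calling, doublets, droplet subtraction, weighting, cluster resolution and clustering of each library alone. The restriction to nuclei without oligodendrocyte marker UMIs was chosen after seeing the data.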

Additional observations from a re-analysis of the deposited data

Results flagged for a closer look

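Malat1 was lower in the aged library in neurons, with a ratio of 0.856, and the opposite way in 3 sets of barcodes, each with an interval above 1. The ratio was 1.3 in fibroblasts, 1.12 in mural cells and 1.38 in the unnamed low-UMI cluster. The difference between these sets and neurons was not tested.

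Fibroblasts held 12.96% Malat1 in 17 aged and 9.99% in 95 young nuclei. In 32 of the young nuclei, a cluster with 0 aged nuclei, the level was 10.3%. In the other cluster it was 12.96% aged and 9.59% young, and without the nucleus with most Malat1 UMIs of each library 11.2% aged and 9.59% young. Its median nuclei held 11.4% aged and 9.24% young.

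Mural cells, the contractile cells of small vessels, held 11% in 28 aged and 9.8% in 38 young nuclei. The median nucleus went the other way, with 11.7% aged and 14.4% young. Without the nucleus with most Malat1 UMIs of each library the levels were 10.99% aged and 11.01% young. In the unnamed cluster the levels were 1.59% aged and 1.15% young, below the 1.68% aged and 1.88% young of droplets without nuclei.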

How the results depend on the processing

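Recomputing the log2 ratios, aged over young, under each setting in each of the 5 main classes gave 51 values for Malat1 and 55 for Neat1. The Malat1 sign held in 51 of 51, and the Neat1 sign in 50 of 55. The restriction to nuclei without oligodendrocyte marker UMIs is among the Neat1 settings only. Under it the Malat1 ratio was 0.857 in neurons, 0.781 in microglia, 0.865 in astrocytes and 0.988 in precursors. Only the interval in precursors included 1 (0.962 to 1.01). Malat1 in neurons (-0.23) was -0.24 with Malat1, Neat1 and mitochondrial UMIs left out of the total, -0.23 at 1% mitochondrial UMIs, -0.22 with droplet RNA subtracted, -0.22 as a mean of nuclei and -0.21 with sub-clusters weighted alike. In oligodendrocytes (-0.43) it was -0.48 with the smaller total, -0.41 at 1000 genes, -0.38 after droplet subtraction and -0.38 with each library clustered alone. In precursors (-0.14) it was -0.20 with doublets kept, -0.12 after droplet subtraction, -0.12 at resolution 2 and -0.12 clustered alone. In microglia (-0.36) it was -0.34 with barcodes above a limit set from the 99th percentile of totals. In astrocytes (-0.19) it was -0.22 with the smaller total, -0.17 with that barcode limit, -0.16 with doublets kept, -0.17 after droplet subtraction and -0.23 as a mean of nuclei.

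Neat1 in oligodendrocytes (0.57) was 0.51 with the smaller total, 0.65 with the barcode limit, 0.63 after droplet subtraction and 0.50 clustered alone. Kept to nuclei without oligodendrocyte marker UMIs, Neat1 was 0.014 in neurons, against 0.60 in all neurons, and turned to -0.85 in astrocytes, against 0.46, while in microglia it was 0.96, against 1.04. In precursors, whose interval included 0 (-0.53), it was 0.39 at resolution 2, 0.37 clustered alone, 0.25 with doublets kept and 0.18 without marker UMIs. The cause of these shifts was not tested. No paired analysis was possible because there is 1 library per age. Depth limits Neat1 outside oligodendrocytes, where the other main classes held 15 to 567 UMIs per library.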
